A study of Sus scrofa with 2 samples.

Results

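The family of miR-15, miR-16, miR-195 and miR-424 was examined in the anterior pituitary of 2 pig breeds, Bama minipigs, labelled YB, and Landrace, labelled YC. Its members were taken by name, as every porcine (ssc-) probe for miR-15, miR-16, miR-195, miR-322, miR-424, miR-497 or miR-503 with any letter or arm, and 8 of the 355 probes on the array matched. These were ssc-miR-15a, ssc-miR-15b, ssc-miR-16, ssc-miR-195, ssc-miR-424, its opposite arm ssc-miR-424*, ssc-miR-497 and ssc-miR-503. The Bama minipigs, a small Chinese breed of slow growth, and the Landrace pigs, a large commercial breed, were healthy female piglets 20 days old, and no treatment is named. Anterior pituitaries of 3 pigs were pooled for each breed, and each pool was hybridized to 1 array, so breed, pool and array cannot be told apart and no test between breeds was possible. Pooling also leaves the spread between pigs unknown.

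A miRNA is a short RNA that lowers the output of messenger RNAs carrying a match to its seed, bases 2 to 8 counted from its 5′ end. The miR-15 and miR-16 family is known as a brake on the cell cycle. Its established targets include cyclins of the D and E types, cell-cycle kinases and the survival protein BCL2. The locus of miR-15a and miR-16 is frequently lost in chronic lymphocytic leukaemia, and lower levels of both have been described in pituitary adenomas.

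The mature sequences are shown first because the seed defines the family. They were copied from the probe list of the study, which gives a sequence for all 355 probes, and are written 5′ to 3′ with the seed in capitals. The last pair, ssc-miR-103 and ssc-miR-107, are relatives from outside the family.

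ssc-miR-15a: uAGCAGCAcauaaugguuugu
ssc-miR-15b: uAGCAGCAcaucaugguuuaca
ssc-miR-16: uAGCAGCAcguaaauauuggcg
ssc-miR-195: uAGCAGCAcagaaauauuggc
ssc-miR-424: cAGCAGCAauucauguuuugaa
ssc-miR-497: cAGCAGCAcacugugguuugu
ssc-miR-503: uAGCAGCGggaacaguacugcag
ssc-miR-424*: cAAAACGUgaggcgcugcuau
ssc-miR-103: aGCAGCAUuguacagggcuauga
ssc-miR-107: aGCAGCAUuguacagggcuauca

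The seed AGCAGCA was shared by 6 members, ssc-miR-15a, ssc-miR-15b, ssc-miR-16, ssc-miR-195, ssc-miR-424 and ssc-miR-497, and by no other of the 355 probes. A messenger RNA would pair with it through UGCUGCU. The seed of ssc-miR-503 was AGCAGCG, which differs at its last base, and that of the opposite arm ssc-miR-424* was AAAACGU, which is unrelated. In ssc-miR-103 and ssc-miR-107 the same 7 letters begin at the first base, so that their seed is GCAGCAU.

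Outside the seed the members fall into sequence pairs. Compared base by base from the 5′ end, ssc-miR-16 and ssc-miR-195 differed at 2 of 21 bases, ssc-miR-15a and ssc-miR-15b at 3 of 21, and ssc-miR-15a and ssc-miR-497 at 4 of 21. The remaining pairs of the 7 members other than ssc-miR-424* differed at 6 or more bases. Outside the family, the most similar probe of the array differed from its member at 8 bases or more. How far such similar miRNAs bind to each other's probes was not tested.

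In the RefSeq annotation of Sscrofa11.1, used for names and neighbours only, MIR15A lies next to a copy of the miR-16 gene. MIR15B lies next to another copy, and both are within SMC4, a gene for a subunit of the condensin complex. The mature ssc-miR-16 on the array therefore has 2 gene copies in that annotation. MIR195 lies next to MIR497, within a long non-coding RNA gene.

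The deposited values are signal intensities after the authors' background subtraction and LOWESS normalization. Across all probes the signals ran from 0.0247 to 35031 in YB and from 0.00531 to 42831 in YC, with medians of 114 and 95.1. Background and spot data are not part of these values. The log2 ratio of a member is therefore given only where both signals were 100 or more, as they were for 169 of the 355 probes, and other members are given by their signals alone. Counts and medians over all probes used a mean signal of 100 or more, which 182 probes had. Of these, 13 had a signal under 100 on one array, so the main counts are also given over the 169. The tissue label was checked with miRNAs known to be abundant in pituitary endocrine and epithelial cells. ssc-miR-7, miR-375 (probe Y-90), miR-200a (Y-76) and miR-200c (Y-77) all had signals of 7906 or more on both arrays. The brain markers ssc-miR-124a and ssc-miR-9-1 were under 100 on both. Without background data, such low signals set no limit on the amount of brain RNA.

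Of the 8 members, 5 had a signal of 100 or more in both breeds and 3 were under 100 in both. None of the 5 differed by 2-fold or more. Of the 182 probes with a mean signal of 100 or more, 30 differed by that much (16.5%), 24 of them higher in YB (13.2%) and 6 lower (3.3%). The 13 probes with one signal under 100 held 9 of these, 7 higher and 2 lower. Over the 169 probes held to the same minimum as the members, 21 differed by 2-fold or more (12.4%), 17 higher in YB (10.1%) and 4 lower (2.37%). A count of 0 among 5 members is too few to be set apart from either share. The balance of such calls depended on scaling, though those higher in YB were the larger part in every setting. They made up 80.0% of the calls as deposited and after cyclic loess. The share was 67.7% after median scaling (21 higher, 10 lower) or 75th percentile scaling, 70.0% after quantile normalization and 88.0% with an offset of 50. Over the 169 probes it was 81.0% as deposited and after cyclic loess, and 63.6% after median or 75th percentile scaling. After quantile normalization it was 66.7% there, and with the offset 88.9%.

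ssc-miR-16 and ssc-miR-15b, each encoded beside a partner of the family, were nearly level between the breeds. The signal of ssc-miR-16 was 8568 in YB and 9377 in YC, a log2 ratio (YB over YC) of -0.13. For ssc-miR-15b it was 5567 and 5752, a log2 ratio of -0.047. Both were thus slightly lower in YB, by 1.09-fold and 1.03-fold. In bulk tissue, fewer cells of a type and less RNA per cell cannot be told apart.

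ssc-miR-15a, encoded beside a miR-16 copy, had 2820 in YB and 3207 in YC. Its log2 ratio of -0.19, or 1.14-fold lower in YB, was the lowest of the 5. Even so, 54 of the 182 probes, and 52 of the 169, had a ratio as low or lower.

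ssc-miR-424, whose counterpart in mouse is named miR-322 and which acts on cell-cycle genes such as CDC25A, had 229 in YB and 238 in YC. The log2 ratio was -0.057. At this signal a difference of that size is small beside the general scatter, since the log2 ratio, taken without its sign, had a median of 0.45 over the 77 probes with a mean signal from 100 to under 1000, and of 0.41 over the 64 of them with 100 or more on both arrays.

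ssc-miR-195 was the member that differed most between the breeds. It is best known for its postnatal rise in the heart, where it restrains the division of muscle cells. Its signal was 1015 in YB and 679 in YC, a log2 ratio of 0.58 or 1.495-fold. It was also the single member of the 5 that was higher in YB. Among the 182 probes, 38 had a ratio as high or higher, and 56 had one as large in either direction. Among the 169 these counts were 29 and 45. Among the 77 probes of its own signal class, 22 had a ratio as high or higher, and 13 of the 64 with 100 or more on both arrays did. The difference was thus within the range of probes of similar signal.

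**Figure D1:**
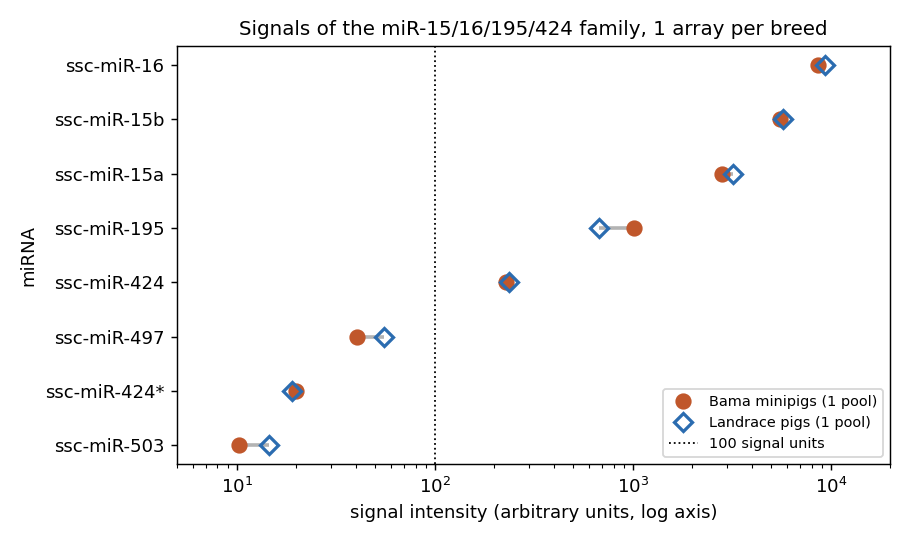
Signal intensity of the 8 family members on a log axis, with filled circles for the Bama minipig (YB) pool, open diamonds for the Landrace (YC) pool and a dotted line at 100 signal units. The symbols nearly coincide for ssc-miR-16, ssc-miR-15b, ssc-miR-15a and ssc-miR-424, are apart for ssc-miR-195 (1015 and 679), and lie left of the line for ssc-miR-497, ssc-miR-424* and ssc-miR-503.

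The 5 probes for miRNAs abundant in striated muscle had a summed signal of 1361 in YB and 464 in YC. Only ssc-miR-206 had a signal of 100 or more on both arrays, and it was lower in YB, with 117 and 278. The other 4 read higher in YB, but all were under 100 in YC, so no log2 ratio is given for them. ssc-miR-1, ssc-miR-133b and ssc-miR-133a-3p are among the 24 probes counted above as 2-fold or more higher in YB. The signal of ssc-miR-1 was 426 and 25.1, that of ssc-miR-133b 439 and 80.6, and that of ssc-miR-133a-3p 370 and 79.2. ssc-miR-133a-5p was low on both arrays, with 8.45 and 0.574, and no direction is taken from it. The part of muscle RNA in the value of ssc-miR-195 was not tested. Of the blood markers, ssc-miR-451 had 5286 in YB and 5841 in YC, and ssc-miR-486 went the other way, with 208 and 182. Together they summed to 5494 and 6023.

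Contrasts within the family do not depend on a scaling factor, because a factor applied to a whole array cancels when 2 log2 ratios are subtracted. The log2 ratio of ssc-miR-195 exceeded that of ssc-miR-16 by 0.71 (1.64-fold) and that of ssc-miR-15a by 0.77 (1.70-fold). The other contrasts were small. The log2 ratio of ssc-miR-16 subtracted from that of ssc-miR-15a left -0.056, from that of ssc-miR-15b 0.083 and from that of ssc-miR-424 0.073, and ssc-miR-15a minus ssc-miR-15b gave -0.14. ssc-miR-16 and ssc-miR-195, which differ at 2 bases, thus stood 0.71 apart, while ssc-miR-15a and ssc-miR-15b, which differ at 3, stood 0.14 apart in size. Methods that scale by signal level moved some of these values. After cyclic loess the log2 ratio of ssc-miR-195 stood 0.90 above that of ssc-miR-16, and after either cyclic loess or quantile normalization it stood 1.01 above that of ssc-miR-15a. After quantile normalization the contrasts of ssc-miR-15b and of ssc-miR-424 with ssc-miR-16 turned to -0.13 and -0.056. That of ssc-miR-15a with ssc-miR-16 grew to -0.38 and that with ssc-miR-15b to -0.26.

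**Figure D2:**
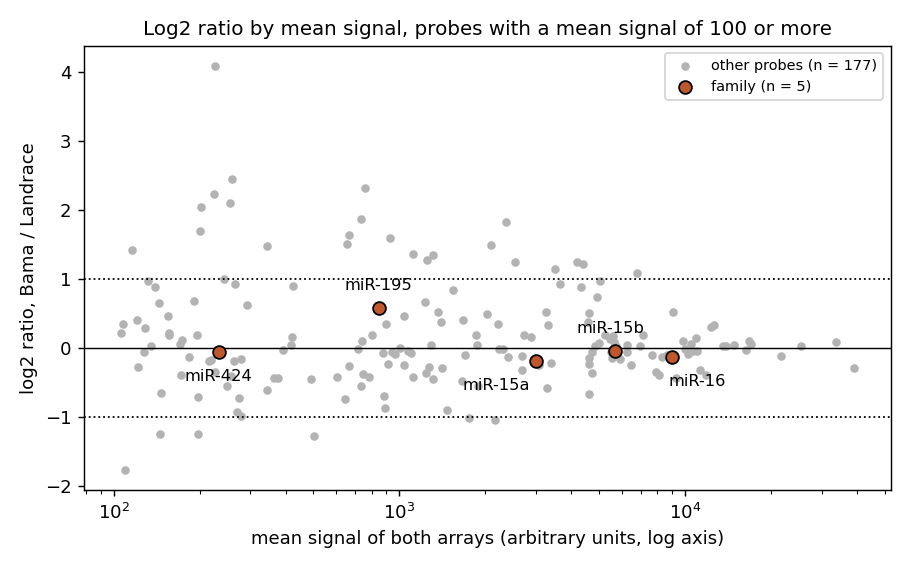
Log2 ratio of YB over YC against the mean signal of both arrays (log axis), for the 182 probes with a mean signal of 100 or more. Grey points are the 177 other probes, orange points the 5 family members, and dotted lines mark 2-fold. All 5 members lie between the dotted lines, with ssc-miR-195 at 0.58 and the others from -0.19 to -0.047.

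Over the 5 members the median log2 ratio was -0.057, with 4 members below 0 and 1 above. Over the 182 probes it was 0.025, with 90 below 0 and 92 above, and the middle of the distribution ran from -0.26 (25th percentile) to 0.40 (75th percentile). Over the 169 probes the median was on the other side of 0, at -0.023, with 88 below 0 and 81 above. Median scaling, set on the medians of the 182 probes, lowered every log2 ratio by 0.17. Scaling to the 75th percentile, set on all 355 probes, lowered every log2 ratio by 0.19. The family median moved to -0.23 and -0.24. Over the 182 probes the median then stood at -0.15 and -0.16. In each of the 5 alternatives ssc-miR-195 stayed above 0 and the other 4 members below. For these 4 only quantile normalization and cyclic loess could have changed the sign. Both scalings by a factor lowered every log2 ratio, and an equal offset on both signals keeps the sign. The log2 ratio of ssc-miR-195 lay between 0.39 after 75th percentile scaling and 0.74 after cyclic loess, short of 2-fold in all 5 alternatives.

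**Figure D3:**
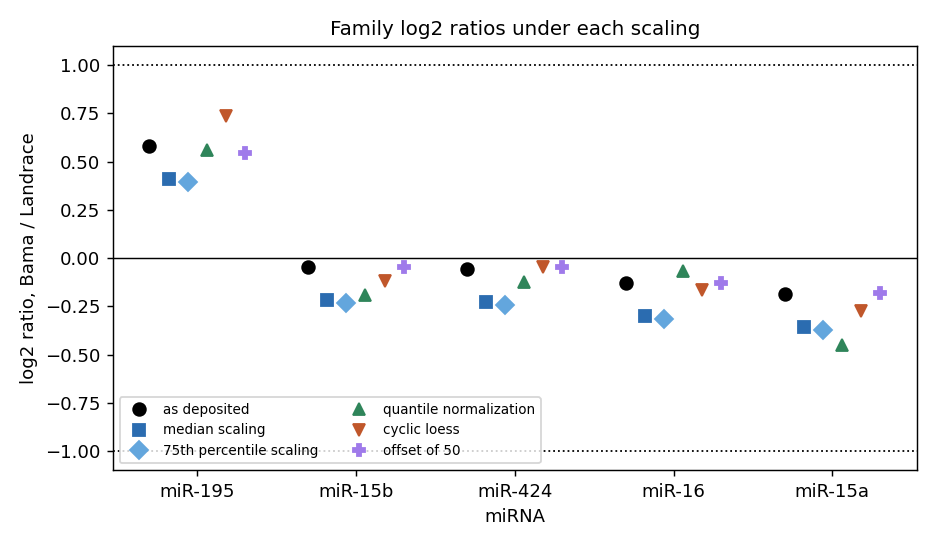
Log2 ratio of the 5 members as deposited and under 5 alternatives (median scaling, 75th percentile scaling, quantile normalization, cyclic loess and an added offset of 50), with dotted lines at 2-fold. ssc-miR-195 lies above 0 throughout, from 0.39 to 0.74, and the other members lie below 0 throughout. The sign of those other members could have changed only under quantile normalization and cyclic loess.

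All 8 members together gave a summed signal of 18269 in YB and 19342 in YC, 2.63% and 2.88% of the signal of the whole array. The sum weights each miRNA by how well its probe binds and counts no molecules. By place among the 355 signals of its array, ssc-miR-16 was at 24 in YB and 23 in YC. ssc-miR-15a was at 69 and 59, ssc-miR-15b at 47 and 37 and ssc-miR-424 at 150 and 147. ssc-miR-195 stood at 122 in YC and 16 places higher in YB, and was the single one of the 5 that stood higher in YB.

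The 3 remaining members were weak on both arrays. ssc-miR-497, the locus partner of ssc-miR-195 with the shared seed, had a signal of 40.7 in YB and 55.7 in YC. No direction is read from these signals, so the arrays do not show whether the partner follows ssc-miR-195. ssc-miR-503 had 10.3 and 14.6, and ssc-miR-424* had 19.9 and 18.9. They were among the 173 probes with a mean signal under 100, and no ratio is given for them.

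In mammals the genes of miR-424 and miR-503 belong to a cluster on the X chromosome together with miR-542 and miR-450. In the RefSeq table MIR450A, MIR450B, MIR450C and MIR542 lie side by side between HPRT1 and PLAC1. MIR424 and MIR503 were not matched in that table, so their place beside these genes is taken from other mammals. The array carried 7 probes for these neighbours, and all 7 had signals under 10 in both breeds. The signal of ssc-miR-450a was 0.0357 in YB and 0.00531 in YC, that of ssc-miR-450b-3p was 0.910 and 1.52, and that of ssc-miR-450b-5p was 1.28 and 0.393. ssc-miR-450c-3p had 1.38 and 0.341, and ssc-miR-450c-5p had 4.10 and 1.56. ssc-miR-542-5p had 7.26 and 8.54, and ssc-miR-542-3p had 0.882 and 0.597. Of the 10 probes named for the cluster, counting ssc-miR-503 and both arms of miR-424, ssc-miR-424 was thus the single one with a signal of 100 or more. Since background data are not part of the values, these low signals set no limit on the amount of the other miRNAs.

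ssc-miR-103 and ssc-miR-107, which are linked to metabolic control and carry the family seed shifted by 1 base, were marginally higher in YB. The signals of ssc-miR-103 were 5720 and 5235 (log2 ratio 0.13) and those of ssc-miR-107 were 5568 and 4909 (log2 ratio 0.18). Their median of 0.15 became -0.016 after median scaling and -0.033 after 75th percentile scaling, each of which lowers all probes alike, and stayed above 0 after quantile normalization (0.0087) and cyclic loess (0.081).

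The miR-17-92 cluster and its paralogs, which drive proliferation, had 12 probes, of which 7 had a signal of 100 or more in both breeds. Of these 7, 6 were higher in YB and 1 lower, while 81 of the 169 probes were higher and 88 lower. The median log2 ratio of 0.039 turned negative after median scaling (-0.13), 75th percentile scaling (-0.15) and quantile normalization (-0.039). After median scaling ssc-miR-19b (1.17) and ssc-miR-20 (0.17) stayed above 0, and the rest of the 7 were below. As deposited, the highest was ssc-miR-19b, with 1881 in YB and 743 in YC (log2 ratio 1.34). The lowest was ssc-miR-363, with 949 and 1128 (log2 ratio -0.25). Of the 2 probes for miR-34, which responds to the tumour suppressor p53, ssc-miR-34a had 199 and 253 (log2 ratio -0.35) and ssc-miR-34c was at 6.63 and 2.61. Differences between these lists and the family were not tested.

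**Figure D4:**
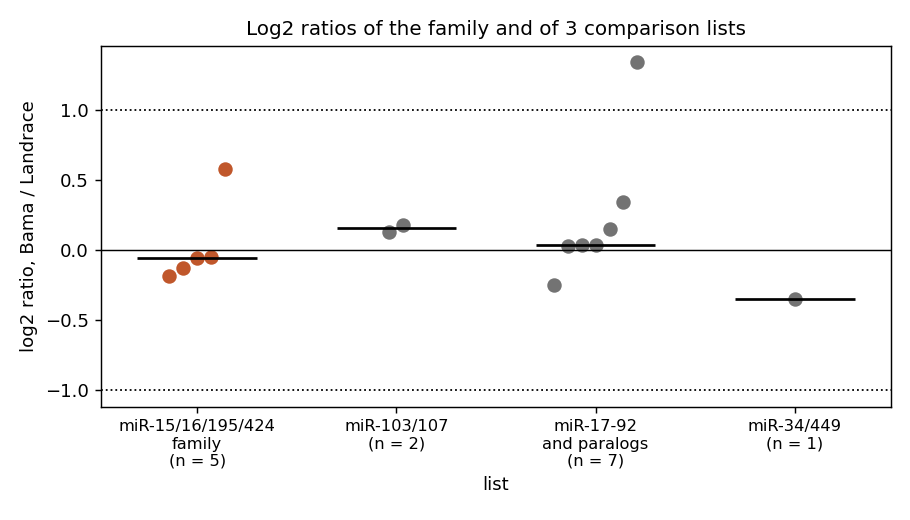
Log2 ratio of YB over YC for the family and 3 comparison lists, with 1 point per probe that had a signal of 100 or more on both arrays, bars at the median and dotted lines at 2-fold. Only ssc-miR-19b of the miR-17-92 list passes 2-fold, and the family median is -0.057.

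The miRNAs closest to the members in both signals were found by the distance between log2 signals over the 2 arrays. ssc-miR-128 was closest to ssc-miR-15b, with 5384 in YB and 5602 in YC, and ssc-miR-30d to ssc-miR-16, with 8361 and 8953. ssc-miR-320 was closest to ssc-miR-15a, with 2569 and 2797, and ssc-miR-425-3p to ssc-miR-424, with 205 and 231. The closest to ssc-miR-195 was ssc-miR-20 of the miR-17-92 list, with 1002 and 790 (log2 ratio 0.34). Since neighbours were chosen by both signals, a similar ratio follows from the choice. With 2 arrays, such closeness describes a pair of signals and nothing more.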

How the data were processed

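RNA of 2 anterior pituitary pools was hybridized to 1 custom array each, with 255 porcine probes of miRBase and 100 further probes named Y-. Each deposited value is a linear signal intensity, made by the authors through background subtraction followed by LOWESS normalization. The authors' own detection calls, spot SDs and p-values were not used. Depth does not apply to arrays, and the number of arrays limits the precision.

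Log2 ratios were computed from the deposited signals with no further scaling. Member ratios are given at a signal of 100 or more on both arrays, and medians and counts over lists and all probes used a mean signal of 100 or more. Alternatives were median scaling over the probes with a mean signal of 100 or more and 75th percentile scaling over all probes. Further alternatives were quantile normalization and cyclic loess with 3 iterations on log2 signals (limma 3.58.1, R 4.3.3). The last were an offset of 50, a minimum mean signal of 500, and no minimum. Medians and counts at 100 or more on both arrays were added after seeing the data. A value was taken as moved when it changed by over 0.1 on the log2 scale. Named miRNAs were all members, the miR-103 and miR-107 list and the miR-450 and miR-542 list, the highest and the lowest ratio of the miR-17-92 list and the miR-34 list, the nearest miRNA to each member, and the tissue markers. Members and lists were chosen with earlier results of these data known. Python 3.11.15, numpy 2.4.6, pandas 2.3.3 and matplotlib 3.10.9 were used.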

Additional observations from a re-analysis of the deposited data

How the results depend on the processing

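No member passed 2-fold in either direction under any of the 8 alternatives, a rule of size with no test behind it. The offset, the minimum of 500 and the minimum on both arrays could not have added one. The family median, -0.057 as deposited, moved to -0.23 after median scaling and -0.24 after 75th percentile scaling. For miR-103 and miR-107 the median of 0.15 became -0.016 after median scaling, -0.033 after 75th percentile scaling and 0.0087 after quantile normalization. For the miR-17-92 list it became -0.13, -0.15 and -0.039 in the same order, and for miR-34 (-0.35, from ssc-miR-34a alone) -0.52, -0.53 and -0.53, or 0.50 with no minimum, where ssc-miR-34c enters. The list of miR-450 and miR-542 has no value with a minimum signal, and miR-34 none at 500. Within the family, cyclic loess moved the contrast of ssc-miR-195 with ssc-miR-16 to 0.90 and that with ssc-miR-15a to 1.01, the latter also 1.01 after quantile normalization. Quantile normalization turned ssc-miR-15b against ssc-miR-16 to -0.13 and ssc-miR-424 against ssc-miR-16 to -0.056, and moved ssc-miR-15a to -0.38 against ssc-miR-16 and -0.26 against ssc-miR-15b. The cause was not tested. A minimum of 100 on both arrays was chosen after seeing the data. It removed no further probe of the family or of the lists, so the members' counts and the list medians could not change. It lowered the probes past 2-fold from 30 of 182 to 21 of 169. In all, 70 of 102 alternative values counted as the same. They kept their sign and stayed within 0.1 on the log2 scale or, for counts, within a factor of 1.5. Part of these 70 could not have differed. Median and 75th percentile scaling cancel in the contrasts within the family, and the minimum on both arrays removed none of the probes used. Nor could the offset or the minimum of 500 add a member past 2-fold.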
